A study of Mus musculus with 23 samples.

Results

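The 9 genes described here encode bone matrix proteins and mineralization enzymes, and were chosen by symbol. Bglap and Bglap2 (osteocalcin), Ibsp (bone sialoprotein), Spp1 (osteopontin), and Sparc (osteonectin) encode matrix proteins, and Alpl, Phospho1, Smpd3, and Enpp1 encode enzymes of mineralization. All 9 were among the 17644 genes of the TPM table and passed the filter on low counts that left 14364 genes for testing. RNA had been sequenced from the femur and tibia of 1 hind limb of 23 female mice aged 11 weeks, with 1 library per mouse. The ends of the bones had been removed and the marrow spun out. The strain is labelled C57BL6/N, and the study's methods give C57BL/6NTac. WT Control mice (n = 5) and KO Control mice (n = 6) had been injected with saline alone, and WT T1D mice (n = 6) and KO T1D mice (n = 6) had received streptozotocin (STZ), which kills the β cells that make insulin. STZ was given intraperitoneally at 100 mg/kg from 8 weeks of age, and type 1 diabetes (T1D) had lasted 3 weeks when bones were collected. KO mice were labelled as carrying a global Sarm1 knockout, a design that targets every tissue and not only bone or nerve. WT and KO littermates came from heterozygous parents, and further WT mice were bought in.

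Osteoblasts lay down a scaffold of type I collagen together with noncollagenous proteins that bind calcium, collagen, or bone cells. Mineral forms where inorganic phosphate is plentiful and its inhibitor, pyrophosphate, is scarce. ENPP1 generates pyrophosphate, tissue-nonspecific alkaline phosphatase (encoded by Alpl) splits it into phosphate, and SMPD3 and PHOSPHO1 release phosphocholine and then phosphate from membrane lipids. The comparison of T1D with Control in each genotype, and of those changes with each other, asks how expression of this program differed early in the disease.

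Bglap (gene ID 12096, chr3:88383495-88384466) and Bglap2 (gene ID 12097, chr3:88377736-88378701) lie side by side in GRCm38.p6, beside Bglap3 (gene ID 12095, chr3:88368616-88372741). Ibsp (gene ID 15891, chr5:104299287-104311472) and Spp1 (gene ID 20750, chr5:104435111-104441053) both lie on chromosome 5. Sparc (gene ID 20692, chr11:55394159-55420080), Alpl (gene ID 11647, chr4:137741731-137796384), Phospho1 (gene ID 237928, chr11:95824500-95832140), Smpd3 (gene ID 58994, chr8:106252548-106337965), and Enpp1 (gene ID 18605, chr10:24637914-24712159) are scattered. The coding sequences of the 3 osteocalcin genes are printed because reads were assigned between them. Each is 288 bases long, read 5′ to 3′ from the GENCODE M21 transcripts of GRCm38, with bases that differ from Bglap in capitals.
Bglap: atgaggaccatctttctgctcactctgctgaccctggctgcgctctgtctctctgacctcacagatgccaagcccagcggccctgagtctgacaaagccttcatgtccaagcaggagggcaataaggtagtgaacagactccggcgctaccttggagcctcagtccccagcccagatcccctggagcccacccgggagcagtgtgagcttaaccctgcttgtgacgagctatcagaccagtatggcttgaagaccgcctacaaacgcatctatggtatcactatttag
Bglap2: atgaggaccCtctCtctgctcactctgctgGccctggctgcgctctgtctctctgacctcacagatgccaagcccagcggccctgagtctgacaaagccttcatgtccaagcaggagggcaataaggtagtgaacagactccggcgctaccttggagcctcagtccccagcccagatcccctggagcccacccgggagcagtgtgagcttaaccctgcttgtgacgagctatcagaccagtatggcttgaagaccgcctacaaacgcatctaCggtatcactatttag
Bglap3: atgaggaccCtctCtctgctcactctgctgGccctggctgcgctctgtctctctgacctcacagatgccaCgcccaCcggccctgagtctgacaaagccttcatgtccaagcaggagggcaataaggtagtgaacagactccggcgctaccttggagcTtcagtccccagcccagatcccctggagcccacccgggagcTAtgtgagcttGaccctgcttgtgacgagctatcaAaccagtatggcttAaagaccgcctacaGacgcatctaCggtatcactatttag
Bglap and Bglap2 were identical at 284 of 288 coding bases, with 1 unbroken stretch of 241 identical bases. Bglap and Bglap3 were identical at 275 bases. Values for each osteocalcin gene are therefore uncertain, since reads from the shared stretches could be split between them.

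Promoter sequences were matched for 7 of the 9 genes in the RefSeq table for GRCm38.p6. Neither Bglap2 nor Smpd3 had an entry there. The 250 bases before the annotated start are shown for Bglap, Ibsp, Spp1, and Enpp1, because these 4 genes followed different courses in the WT T1D mice described below. Capitals mark ACCACA, the core bound by RUNX factors, and TATAAA, the TATA box, on either strand.
Bglap, chr3:88384467-88384716, minus strand: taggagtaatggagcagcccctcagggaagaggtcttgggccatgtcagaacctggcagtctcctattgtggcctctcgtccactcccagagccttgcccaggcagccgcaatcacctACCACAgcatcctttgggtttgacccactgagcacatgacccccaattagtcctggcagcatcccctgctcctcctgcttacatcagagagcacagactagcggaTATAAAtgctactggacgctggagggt
Ibsp, chr5:104299037-104299286, plus strand: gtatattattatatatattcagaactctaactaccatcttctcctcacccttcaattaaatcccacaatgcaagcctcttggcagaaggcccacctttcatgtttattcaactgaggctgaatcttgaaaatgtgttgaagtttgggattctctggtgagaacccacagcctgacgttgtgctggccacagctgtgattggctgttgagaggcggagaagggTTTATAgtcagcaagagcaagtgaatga
Spp1, chr5:104434861-104435110, plus strand: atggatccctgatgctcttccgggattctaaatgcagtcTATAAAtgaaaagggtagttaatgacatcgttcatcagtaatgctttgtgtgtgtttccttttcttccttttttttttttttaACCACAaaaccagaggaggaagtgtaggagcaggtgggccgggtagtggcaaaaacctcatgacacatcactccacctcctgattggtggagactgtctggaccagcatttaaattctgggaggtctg
Enpp1, chr10:24712160-24712409, minus strand: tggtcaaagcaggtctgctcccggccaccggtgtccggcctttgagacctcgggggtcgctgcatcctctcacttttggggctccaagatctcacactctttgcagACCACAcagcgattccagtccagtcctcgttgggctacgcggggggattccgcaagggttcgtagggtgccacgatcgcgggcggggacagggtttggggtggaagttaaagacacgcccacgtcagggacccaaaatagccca
The Bglap window held ACCACA between 132 and 127 bases before the start and TATAAA between 27 and 22 bases before it. The Ibsp window held TATAAA on the opposite strand, read as TTTATA, between 28 and 23 bases before the start, and held no ACCACA. The Spp1 window held ACCACA between 128 and 123 bases before the start, and TATAAA further upstream, between 211 and 206 bases. The Enpp1 window held ACCACA between 144 and 139 bases before the start and no TATAAA. The windows for Sparc, Alpl, and Phospho1, and a further window for Spp1, are not shown and held no ACCACA. Among them, TATAAA was found only in an Alpl window, on the opposite strand. Of the 32851 promoter entries, 14.1% held ACCACA and 12.4% held TATAAA in windows of the same length and on either strand. These matches describe the sequence and are not evidence of binding.

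Total counts per mouse ranged from 16938101 to 20135592, and all 55 pairs of mice of the same group differed by more than sampling noise. The targeted gene, Sarm1, had low RNA counts in every mouse, with 6 to 32 counts in WT mice and 5 to 29 counts in mice labelled KO. In edgeR, Sarm1 differed between genotypes by -0.55 (SE 0.38, adjusted p = 0.999) in Control mice and by 0.78, higher in mice labelled KO (SE 0.37, unadjusted p = 0.0435, adjusted p = 0.281), in T1D mice, so these counts did not separate the genotypes. Of 6 osteoblast markers, 5 osteocyte markers, and 8 osteoclast markers, none was at 0 counts in any mouse. Summed erythroid markers ranged from 81163 to 238217 CPM (counts scaled to library size, with TMM factors), and summed neutrophil markers from 22215 to 41947 CPM, so blood cell RNA remained in these bones. The WT T1D mice A3905 and A3906 stood apart from the other 21 mice, and estimates in WT T1D mice that these mice moved are given with and without them. Mice with IDs beginning with A17 were 1 WT Control and 3 WT T1D mice. All other mice, including every KO mouse, had IDs beginning with A36 to A39, and values within those IDs are given below.

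The 9 genes made up a large share of the bone transcriptome. As a share of all TPM, a unit scaled for gene length, they reached 4.32% ± 1.08 (SD, n = 5) in WT Control, 4.28% ± 1.41 (SD, n = 6) in KO Control, and 3.98% ± 0.721 (SD, n = 6) in KO T1D. In WT T1D mice the share was 2.41% ± 1.66 (SD, n = 6). It was 0.328% in A3905 and 0.294% in A3906, and from 3.12% to 4.03% in the other 4 WT T1D mice.

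The order of TPM levels in WT Control mice ran from osteocalcin to Enpp1. Bglap was highest, at 24495 ± 6149 TPM (SD, n = 5), followed by Bglap2 at 9240.2 ± 2491 TPM and Sparc at 6790.3 ± 1726 TPM. Ibsp had 1040 ± 232 TPM, and Spp1 844 ± 219 TPM. Alpl had 383 ± 90.3 TPM, and Phospho1 355 ± 99.6 TPM. Smpd3 had 85.9 ± 24.8 TPM and Enpp1 6.19 ± 1.23 TPM. Ranges overlapped between Bglap2 and Sparc, Ibsp and Spp1, Spp1 and Alpl, and Alpl and Phospho1. Within each WT Control mouse, however, Bglap2 exceeded Sparc, Ibsp exceeded Spp1, and Spp1 exceeded Alpl. Alpl exceeded Phospho1 in all of these mice but A3904, where they were at 410 and 440 TPM, so this order was not uniform. In A3905 and A3906 the TPM order differed. Spp1 was the highest of the 9 genes, at 1924 TPM in A3905 and 1771 TPM in A3906, above Bglap at 335 and 237 TPM. Enpp1 (4.51 and 5.31 TPM) exceeded Smpd3 (2.42 and 1.76 TPM), which lay above it in the other 21 mice.

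**Figure D1:**
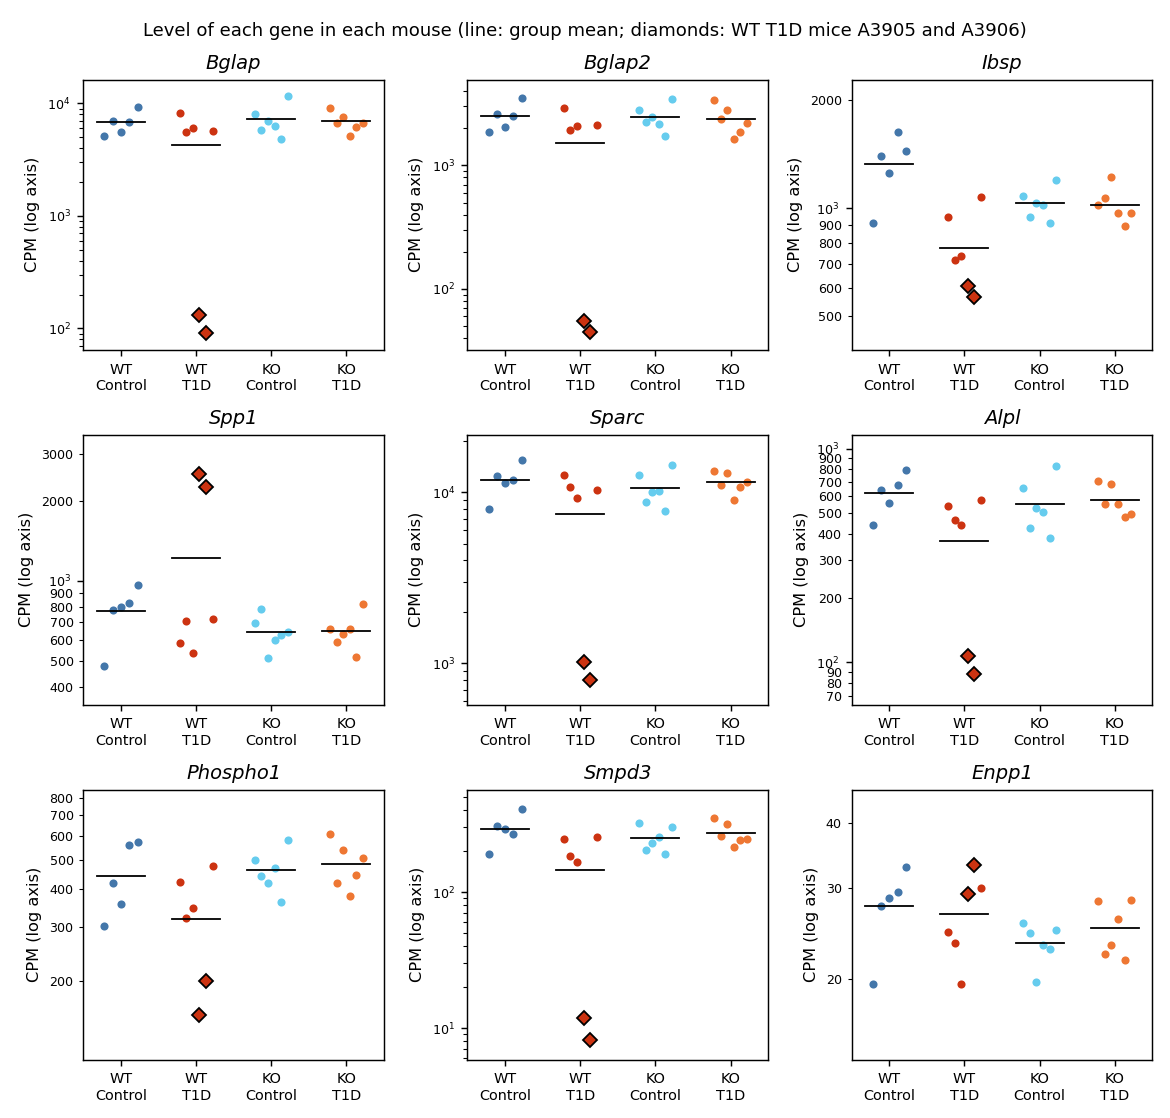
CPM of each of the 9 genes in each mouse on a log axis, by group, with the group mean as a line and the WT T1D mice A3905 and A3906 as diamonds. Bglap was at 131 and 90.2 CPM in these mice against 5136 to 9216 CPM in WT Control, Spp1 was above every WT Control mouse in them, and Enpp1 overlapped between the groups.

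In WT mice, T1D was accompanied by lower Ibsp, and this was the only 1 of the 9 genes to pass the test. Ibsp encodes bone sialoprotein, an acidic protein that binds collagen and can nucleate mineral. It fell by 0.78 on the log2 scale (SE 0.15, edgeR adjusted p = 0.0236, 95% interval -1.09 to -0.47). Across all tested genes, 334 (2.33%) passed in either direction, 215 higher and 119 lower, and 0.828% passed as lower. With limma on log2(TPM + 1), a scale on which the median of all genes was -0.24, 83 genes were higher and 5071 lower (35.9% of those tested), and 6 of the 9 genes passed as lower. Of the 9 genes, 8 had lower estimates in WT T1D, beside 51.9% of all tested genes. The median estimate was -0.67 for the 9 genes and -0.01 for all genes. Without A3905 and A3906, the median was -0.18 for the 9 genes and -0.01 for all genes, so most of its size came with these mice. At an unadjusted p under 0.05, 3 of the 9 genes (Ibsp, Alpl, and Phospho1) were lower, beside 11.2% of all tested genes. No gene of the 9 had WT Control and WT T1D ranges that were fully separate, beside 2.19% of all tested genes.

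Ibsp was at 908, 1253, 1394, 1445, and 1625 CPM in the WT Control mice. In WT T1D mice it was at 565, 607, 719, 734, 944, and 1071 CPM. Thus 4 of the WT T1D mice had less Ibsp than any WT Control mouse, and the lowest WT Control mouse overlapped with the 2 highest WT T1D mice. The means were 1325 ± 269 CPM (SD, n = 5) and 773 ± 197 CPM (SD, n = 6), a fold of 0.584. Without A3905 and A3906 the estimate stayed close, at -0.62 (SE 0.14), but the edgeR adjusted p was 0.149 in a fit in which 0 genes passed and 1571 had an unadjusted p under 0.05. The adjusted p also rose above the threshold when any of WT Control A3767, A3903, A3904, or A3907, or WT T1D A3905 or A3906, was left out alone, with a highest value of 0.0803. With A36 to A39 IDs only, the estimate was -0.92 (SE 0.18, edgeR adjusted p = 0.00821). That fit kept 3 WT T1D mice, A3905 and A3906 among them, and 15.5% of all genes tested in it passed.

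The osteocalcin genes encode a small protein that binds calcium after vitamin K-dependent carboxylation. Bglap was at 5136, 5587, 6844, 7035, and 9216 CPM in WT Control mice. In WT T1D mice it was at 90.2, 131, 5565, 5627, 6050.3, and 8173 CPM. The 4 higher WT T1D mice lay inside the WT Control range, whereas A3905 was 51.6-fold and A3906 75.0-fold below the WT Control mean. Bglap2 followed the same course, at 54.7 and 45.0 CPM in A3905 and A3906 against 1876 to 3523 CPM in WT Control, and 1950 to 2914 CPM in the other 4 WT T1D mice. The edgeR estimates over all mice were -0.66 (SE 0.64, adjusted p = 0.572) for Bglap and -0.72 (SE 0.62, adjusted p = 0.518) for Bglap2. Neither passed, and without the 2 mice they were -0.09 (SE 0.21) and -0.15 (SE 0.21). Bglap3, the nearby copy, was at 0.566 and 0.289 CPM in the 2 mice and 3.56 to 6.34 CPM in WT Control. The ratio of Bglap to Bglap2 counts was 2.40 and 2.00 in A3905 and A3906, and between 2.59 and 3.36 in the other 21 mice. With the 3 osteocalcin genes summed, the estimate was -0.68 (adjusted p = 0.558). All 9 genes, Ibsp and the osteocalcin genes among them, were chosen with earlier results of these data known, so their direction is not independent evidence.

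Sparc encodes osteonectin, a collagen-binding glycoprotein. It was at 8001, 11309, 11727, 12407, and 15486 CPM in WT Control. In WT T1D it was at 798, 1020.1, 9198, 10253, 10640.3, and 12523 CPM. Again the 2 low values were A3906 and A3905, and the other 4 mice were within the WT Control range. The estimate was -0.67 (SE 0.45, adjusted p = 0.394), and -0.15 (SE 0.17) without these mice.

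Spp1 encodes osteopontin, a phosphoprotein that inhibits crystal growth and anchors bone cells, and is made by osteoclasts and macrophages as well as osteoblasts. It was at 480, 778, 799, 825, and 965 CPM in WT Control. In WT T1D it was at 535, 583, 707, 720, 2247, and 2526 CPM. The 2 highest were A3906 and A3905, at 2.92-fold and 3.28-fold the WT Control mean, and were the mice with the lowest values of the other 4 matrix protein genes. The remaining 4 lay within the WT Control range. The estimate was 0.66 (SE 0.32, adjusted p = 0.230) with all mice and -0.28 (SE 0.16, adjusted p = 0.539) without the 2 mice, so its sign depended on them. Among A36 to A39 mice it was 1.14 (SE 0.27, edgeR adjusted p = 0.0150), with A3905 and A3906 among the 3 WT T1D mice of that fit. The TPM ratio of Spp1 to Ibsp was 0.809 ± 0.0971 (SD, n = 5) in WT Control, 0.879 ± 0.169 (SD, n = 6) in KO Control, and 0.890 ± 0.166 (SD, n = 6) in KO T1D. In WT T1D it was 5.81 in A3905 and 5.54 in A3906, and from 0.862 to 1.37 in the other 4 mice.

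The enzymes differed among themselves in WT T1D. Alpl, whose product removes pyrophosphate, was at 438, 558, 642, 676, and 795 CPM in WT Control, and at 88.7, 107, 439, 461, 538, and 576 CPM in WT T1D. Its estimate was -0.75 (SE 0.35, adjusted p = 0.199), and -0.31 (SE 0.19, adjusted p = 0.576) without A3905 and A3906. Smpd3, the neutral sphingomyelinase, was at 192, 268, 293, 307, and 405 CPM in WT Control, and at 8.21, 11.8, 167, 185, 244, and 253 CPM in WT T1D. For Smpd3, as for Ibsp, 4 of the WT T1D mice lay below the WT Control range. Its estimate was -1.02 (SE 0.52, adjusted p = 0.255), and -0.47 (SE 0.19, adjusted p = 0.371) without the 2 mice.

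Phospho1, the phosphatase of matrix vesicles, changed less in the 2 mice. It was at 303, 357, 421, 561, and 573 CPM in WT Control, and at 154, 199, 321, 348, 422, and 477 CPM in WT T1D. Only A3905 and A3906 were below the WT Control range, at 34.8% and 45.0% of the WT Control mean. The estimate was -0.47 (SE 0.22, adjusted p = 0.220), and -0.18 (SE 0.18, adjusted p = 0.759) without them. Enpp1, the source of pyrophosphate, was at 27.6 ± 4.92 CPM (SD, n = 5) in WT Control and 26.6 ± 4.99 CPM (SD, n = 6) in WT T1D, with 29.1 CPM in A3905 and 33.1 CPM in A3906. Its estimate was -0.05 (SE 0.13, adjusted p = 0.849), with a 95% interval of -0.32 to 0.21, and was -0.18 (SE 0.13, adjusted p = 0.645) without these mice.

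The balance between the enzymes that remove and generate pyrophosphate was given as the TPM ratio of Alpl to Enpp1. It was 61.7 ± 5.02 (SD, n = 5) in WT Control, 64.9 ± 17.7 (SD, n = 6) in KO Control, and 64.8 ± 10.9 (SD, n = 6) in KO T1D. In WT T1D it was 10.3 in A3905 and 7.45 in A3906, and from 53.0 to 63.2 in the other 4 mice, which overlapped with WT Control. These are RNA ratios and not measures of enzyme activity.

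**Figure D2:**
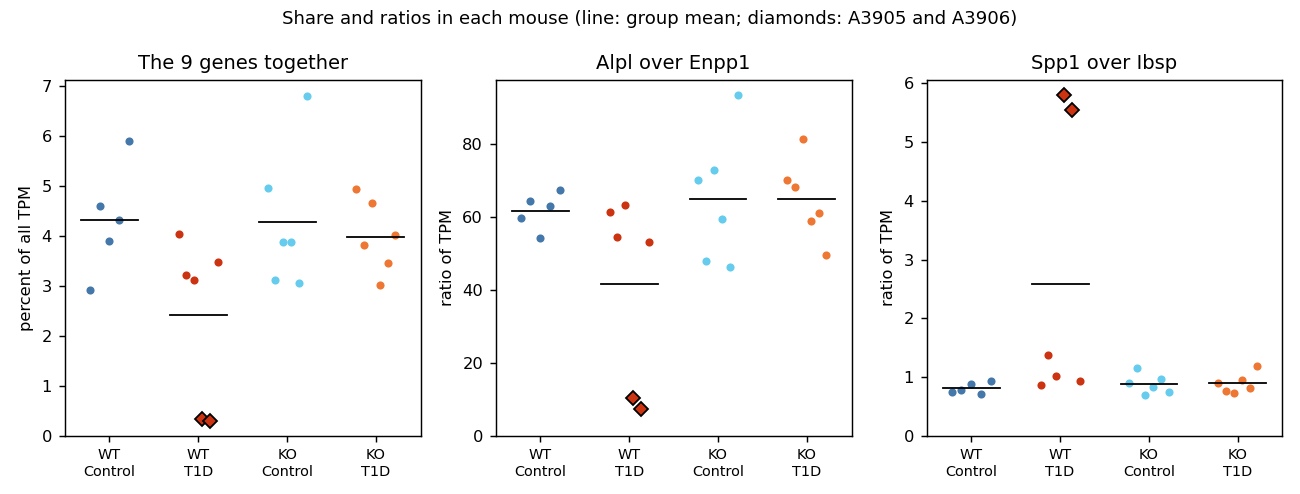
From left to right, the share of all TPM taken by the 9 genes in percent, the TPM ratio of Alpl to Enpp1, and the TPM ratio of Spp1 to Ibsp, for each mouse by group, with group means as lines. In A3905 and A3906 (diamonds) the share was 0.328% and 0.294%, the Alpl ratio 10.3 and 7.45, and the Spp1 ratio 5.81 and 5.54.

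In mice labelled KO, no change with T1D was detected for any of the 9 genes. All estimates were between -0.07 and 0.12 on the log2 scale, and all adjusted p values were 1 in edgeR. Of the 9 genes 6 had higher estimates in KO T1D, beside 49.4% of all tested genes. With edgeR, 0 of 14364 genes (0%) passed, and 452 had an unadjusted p under 0.05. DESeq2 and limma also called 0 genes. The fit shared 1 estimate of spread over all 4 groups, so the errors for KO mice were also widened by A3905 and A3906. Without these mice, the estimates in KO were from -0.07 to 0.11, with SEs between 0.11 and 0.18.

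Ibsp was at 912 to 1201 CPM in KO Control (median 1027) and 893 to 1223 CPM in KO T1D (median 995), and its estimate was -0.01 (SE 0.14, 95% interval -0.31 to 0.29). Bglap was at 4809 to 11583 CPM in KO Control (median 6616) and 5087 to 9116 CPM in KO T1D (median 6735). Spp1 was at 513 to 785 CPM (median 634) and 517 to 819 CPM (median 648) in these groups. The ranges overlapped for all 9 genes. For Bglap the 95% interval of the estimate, from -1.35 to 1.22, does not exclude changes as large as the -0.66 estimated in WT mice.

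**Figure D3:**
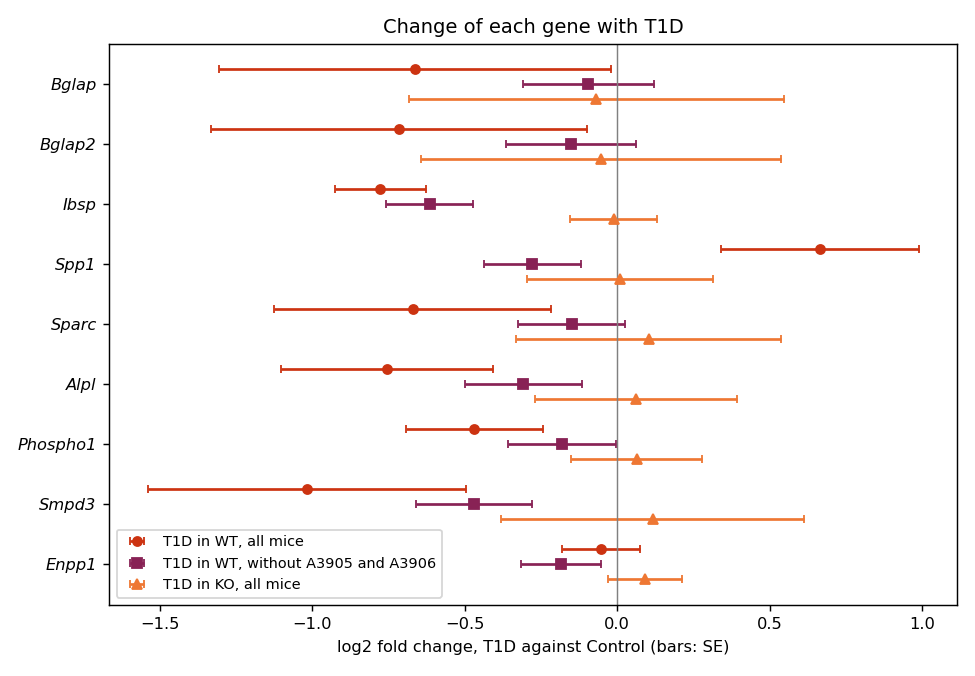
The log2 fold change of T1D against Control for each of the 9 genes, with bars for the SE, in WT with all mice (circles), in WT without A3905 and A3906 (squares), and in mice labelled KO (triangles). Ibsp was at -0.78, -0.62, and -0.01 in these fits, and Spp1 at 0.66, -0.28, and 0.01.

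Whether the change with T1D differed between genotypes was tested with the interaction term. None of the 9 genes and 0 of all tested genes (0%) passed in edgeR, with 1467 genes at an unadjusted p under 0.05, and DESeq2 called 0 genes and limma on log2(TPM + 1) 2 genes. Ibsp had the lowest p among the 9, with an interaction of 0.77 (SE 0.21, unadjusted p = 0.00112, adjusted p = 0.479). It was the only 1 of the 9 with a positive interaction at an unadjusted p under 0.05, beside 4.81% of all tested genes. Without A3905 and A3906, the Ibsp interaction was 0.60 (SE 0.19, unadjusted p = 0.00394, adjusted p = 0.927) and that of Smpd3 0.58 (SE 0.25, unadjusted p = 0.0286, adjusted p = 0.927). The other 7 genes had interactions between 0.02 and 0.37 in that fit, with unadjusted p values of 0.132 or more. The difference between genotypes was therefore not established for any of the 9 genes after adjustment.

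Differences between genotypes were also tested within Control and within T1D mice, which share their groups with the comparisons above. In Control mice 0 of the 9 genes passed in edgeR or DESeq2, beside 4 of all tested genes (0.0278%). Ibsp had the only unadjusted p under 0.05 among the 9, at -0.36 (SE 0.15, unadjusted p = 0.0233, adjusted p = 0.999), with KO Control at 1032 ± 104 CPM (SD, n = 6). In T1D mice 0 of the 9 passed in edgeR or DESeq2, beside 13 of all tested genes (0.0905%). Here Ibsp was higher in KO T1D by 0.40 (SE 0.14, adjusted p = 0.187), Phospho1 by 0.59 (SE 0.21, adjusted p = 0.196), and Spp1 was lower, at -0.91 (SE 0.31, adjusted p = 0.182), each with an unadjusted p under 0.05. With limma on log2(TPM + 1), Ibsp (0.64, adjusted p = 0.0465) and Phospho1 (0.88, adjusted p = 0.0469) passed, beside 8.12% of all tested genes. Without A3905 and A3906, the KO T1D against WT T1D estimates were 0.24 (SE 0.14) for Ibsp, 0.30 (SE 0.17) for Phospho1, and 0.03 (SE 0.15) for Spp1. Among A36 to A39 mice, Spp1 was lower in KO T1D than in WT T1D, at -1.51 (SE 0.24, adjusted p = 0.00264), in a fit in which 10.8% of all tested genes passed.

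Restricting the fit to A36 to A39 mice left 4 WT Control and 3 WT T1D mice. In that fit 3 of the 9 genes passed in WT (Ibsp, Spp1, and Alpl), beside 15.5% of the genes tested there (1117 higher and 1094 lower). A3905 and A3906 were 2 of these 3 WT T1D mice. Alpl was at -1.37 (SE 0.44, adjusted p = 0.0436) in that fit. The A17 mice held only 1 WT Control mouse, so no test was made within them.

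Other genes of the matrix and of phosphate handling were read from lists written from general knowledge. In WT T1D, 0 of 10 tested genes of other matrix proteins, 0 of 10 of phosphate handling, and 0 of 6 of matrix protein modification passed the test with edgeR in either direction, and the same held in the other 4 comparisons. At an unadjusted p under 0.05 in WT, 0 of 10 matrix genes moved. Of the 10 phosphate genes, 3 (Phex, Anxa5, and Anxa6) were lower and 1 (Slc20a1) was higher. Of the 6 modification genes, 1 (Ggcx) was lower. Beside these counts, 2.33% of all 14364 tested genes passed in WT. An unadjusted p under 0.05 was reached by 3195 of them in either direction, and by 11.2% as lower. Median estimates were -0.41, -0.09, and -0.10 for these lists. Dspp, Ahsg, and Abcc6 were not tested. Ankh is another symbol for Ank, which was tested (0.0969 in WT, edgeR adjusted p = 0.518).

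The 2 collagen I genes had the largest estimates among the other matrix genes. Col1a1, the α1 chain, was at 48456 ± 11271 CPM (SD, n = 5) in WT Control, and at 3018 and 2215 CPM in A3905 and A3906. Its estimate was -0.91 (SE 0.49, adjusted p = 0.282), and that of Col1a2, the α2 chain, -0.90 (SE 0.48, adjusted p = 0.274). Without the 2 mice both were at -0.37 (adjusted p = 0.505 and 0.483). Col1a1 also belongs to a gene list that the study drew from these same samples. In phosphate handling, Phex, an endopeptidase that cleaves mineralization-inhibiting peptides, was 7.87-fold and 5.87-fold below the WT Control mean in these mice. The Phex estimate was -0.99 (SE 0.32, adjusted p = 0.0796), and -0.55 (SE 0.17, adjusted p = 0.288) without them. Slc20a2, a phosphate transporter, was at -0.39 (SE 0.27, adjusted p = 0.410), and at -0.0581 without them. Among modifying enzymes, Ggcx, the carboxylase that acts on osteocalcin, was at 5.49 and 7.98 CPM in the 2 mice against 19.8 to 26.5 CPM in WT Control. Its estimate was -0.67 (SE 0.22, adjusted p = 0.0894), and that of Vkorc1, which recycles vitamin K for it, was -0.39 (SE 0.23, adjusted p = 0.327). Without the 2 mice, Ggcx was at -0.34 (SE 0.13, adjusted p = 0.366) and Vkorc1 at -0.0468 (SE 0.13, adjusted p = 0.939).

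Several genes chosen after their values were seen did not follow this course in A3905 and A3906. Mepe, an acidic phosphoprotein of osteocytes, was at 199 and 193 CPM against 58.9 to 124 CPM in WT Control. Dmp1, a related matrix protein of osteocytes, was at 98.1 and 109 CPM, inside the WT Control range of 79.1 to 147 CPM. Sost, which encodes the Wnt inhibitor sclerostin, was at 118 and 137 CPM, inside the range of 86.1 to 171 CPM. Fgf23, a phosphate-lowering hormone of osteocytes, was at 7.81 and 9.31 CPM against 0.451 to 1.31 CPM. Fam20c, the kinase that phosphorylates matrix proteins, was at 30.6 CPM in each of these mice and 33.2 CPM on average in WT Control. The low levels in these mice were thus not shared by all bone matrix genes.

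**Figure D4:**
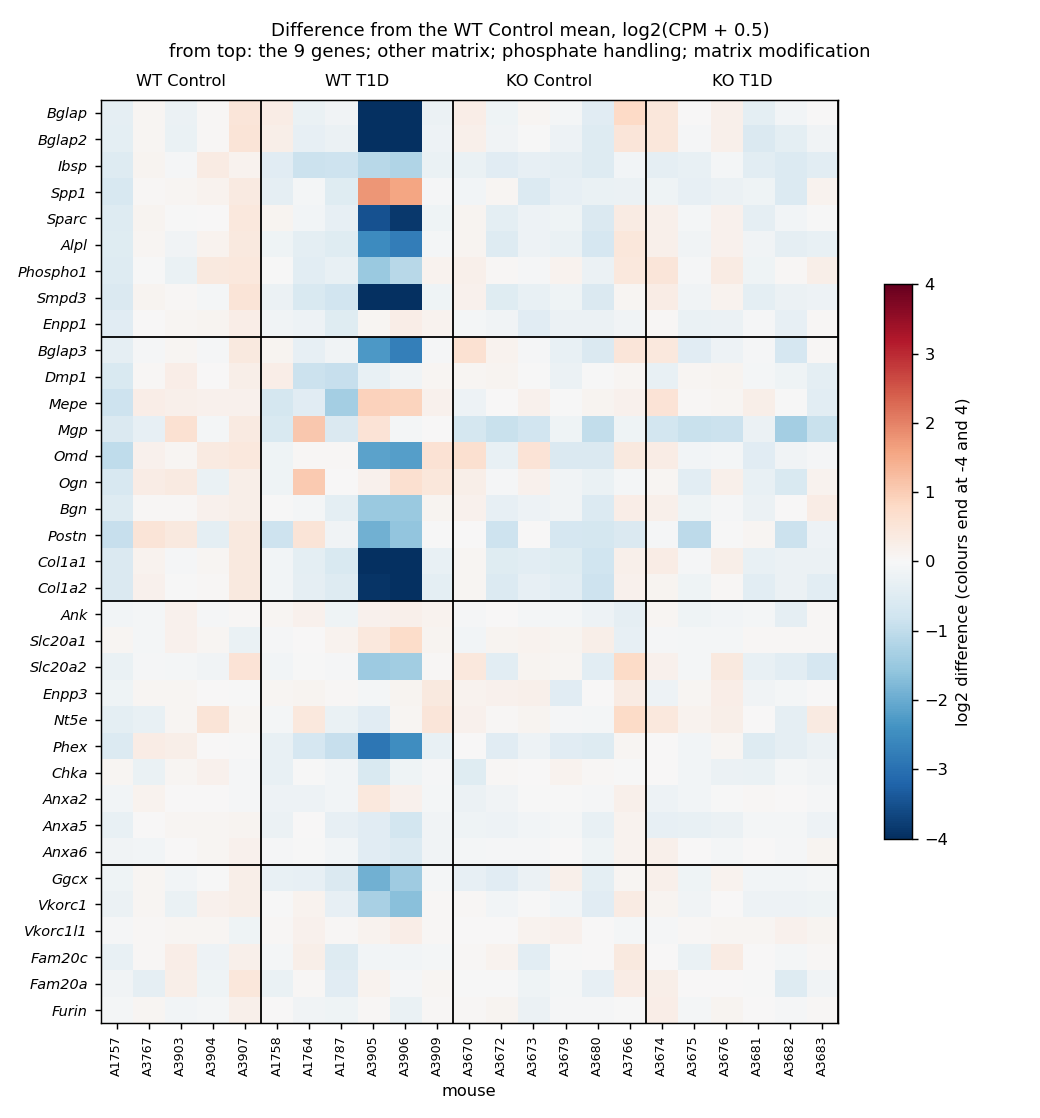
Difference of log2(CPM + 0.5) from the WT Control mean for each mouse (columns, by group) and gene (rows), with the 9 genes on top, then other matrix, phosphate handling, and matrix modification genes. Blue is lower and red higher, with colours ending at -4 and 4. In A3905 and A3906, Bglap, Bglap2, Sparc, Smpd3, Col1a1, and Col1a2 were low, Spp1 and Mepe were high, and Enpp1, Ank, and Furin were near the WT Control mean.

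Cell type markers also moved in these mice. Summed osteoblast markers (Col1a1, Col1a2, Runx2, Sp7, Ifitm5, and Dlx5) were at 6.42% of the WT Control mean in A3905 and 4.75% in A3906. Most of the sum came from Col1a1 and Col1a2, at 3018 and 2052 of 5166 CPM in A3905. In A3906 they were at 2215 and 1519 of 3821 CPM. The other markers were less reduced. Ifitm5 was at 11.9% and 9.31% of its WT Control mean in these mice, and Dlx5 at 27.9% and 26.0%. The osteoblast transcription factors Runx2 (42.4 and 40.2 CPM) and Sp7 (35.3 and 30.7 CPM) were detected in both, at 41.7% and 39.6%, and at 18.0% and 15.7%, of their WT Control means. Summed osteocyte markers were at 91.4% and 97.5% of the WT Control mean, but single markers went from low (Phex) to high (Mepe and Fgf23). Osteoclast markers were at 1.70-fold and 1.82-fold, erythroid markers at 2.15-fold and 2.10-fold, and neutrophil markers at 1.52-fold and 1.38-fold. Macrophage markers were at 89.4% and 93.1%, muscle markers at 113% and 82.7%, and cartilage markers at 14.3% and 17.1%. In bulk bone, fewer cells of a type and less RNA per cell cannot be told apart, and the part of these cell types in the results was not tested.

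Over all mice, summed erythroid markers ranged from 97960 to 143555 CPM in WT Control, 126625 to 238217 CPM in WT T1D, 81163 to 165632 CPM in KO Control, and 109280 to 153234 CPM in KO T1D. In WT T1D 10 of 10 tested erythroid markers had higher estimates. Of 6 osteoblast markers, all had lower estimates and 1, Runx2, passed, at -0.66 (SE 0.16, edgeR adjusted p = 0.0451). Among all tested genes, 51.9% had lower estimates in WT T1D and 0.828% passed as lower. Without A3905 and A3906, Runx2 was at -0.42 (SE 0.12, adjusted p = 0.286) and did not pass. Both Runx2 and Col1a1 are among genes that the study drew from these same samples, so their direction is not independent evidence. No marker of the 5 osteocyte, 8 osteoclast, 8 neutrophil, 7 macrophage, 5 tested cartilage, and 6 muscle genes passed in WT. Osteoclast sums ranged from 2139 to 2950.3 CPM in WT Control, and were 4333 and 4639 CPM in A3905 and A3906 but 1479 to 2438 CPM in the other 4 WT T1D mice. With the erythroid score as a covariate, 0 of the 9 genes and 0 genes in all passed in WT with edgeR, with 557 at an unadjusted p under 0.05. The Ibsp estimate was then -0.40 (SE 0.16, unadjusted p = 0.0218, adjusted p = 0.9996). Those of Bglap, Bglap2, Spp1, Sparc, Alpl, Phospho1, and Smpd3 changed sign, each with an SE larger than the estimate.

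**Figure D5:**
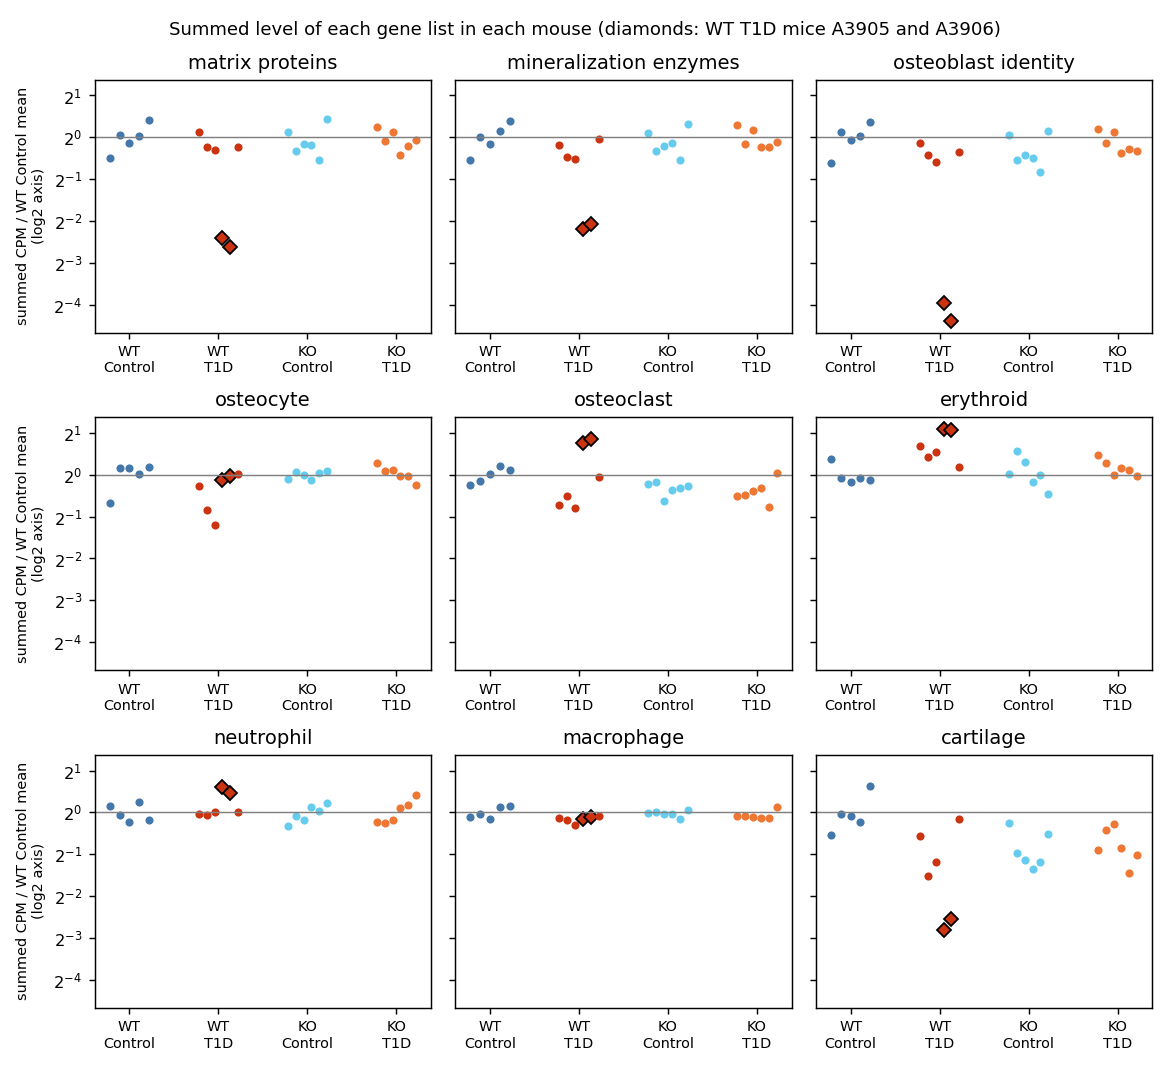
Summed CPM of each gene list in each mouse divided by the WT Control mean, on a log2 axis, by group, for the matrix proteins, the mineralization enzymes, and 7 lists of cell type markers. In A3905 and A3906 (diamonds) summed osteoblast markers, mostly Col1a1 and Col1a2, were at 6.42% and 4.75% of the WT Control mean. Osteocyte markers were at 91.4% and 97.5%, and osteoclast markers at 1.70-fold and 1.82-fold.

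Similarity between the 9 genes across mice was described by correlations of log2(CPM + 0.5) with no test, since mice share group and cell makeup. Because A3905 and A3906 form a cluster apart, the values are over the other 21 mice. Bglap and Bglap2, which can share reads, had r = 0.95 and rho = 0.96. Sparc was close to Bglap (r = 0.88, rho = 0.87), Alpl (r = 0.88, rho = 0.85), and Smpd3 (r = 0.86, rho = 0.86), and Alpl was close to Smpd3 (r = 0.87, rho = 0.89). Spp1 was close to Enpp1 (r = 0.89, rho = 0.87) and far from Bglap (r = 0.19, rho = 0.11). Spp1 and Enpp1 were each closest to the other among the 9 genes. By r, Ibsp was closest to Smpd3 (r = 0.77, rho = 0.84).

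The tested genes whose pattern was most like each of the 9 were found by Pearson's r over all 23 mice, and r is given again over 21 mice. For Bglap and Bglap2 these were the gene for the protease-like protein Prss35 (r = 0.99 with Bglap, 0.83 over 21 mice) and the carboxypeptidase gene Cpz (r = 0.99 and 0.87). For Sparc they were Col1a2 (r = 1.00 and 0.94) and Cpz (r = 1.00 and 0.93), and for Smpd3 the collagen genes Col22a1 (r = 1.00 and 0.91) and Col11a1 (r = 1.00 and 0.91). For Alpl they were Wif1, which encodes a secreted Wnt inhibitor (r = 0.99 and 0.95), and Cpe (r = 0.99 and 0.91). For Phospho1 they were the homeobox gene Dlx3 (r = 0.95 and 0.84) and Fkbp10, a chaperone of collagen (r = 0.94 and 0.88). For Ibsp they were the cytokine receptor gene Lifr (r = 0.93 and 0.88) and Fam92a (r = 0.90 and 0.82). For Spp1 they were C77080 (r = 0.91 and 0.76) and Mmp9, a protease of osteoclasts (r = 0.91 and 0.67). For Enpp1 they were Myo1d (r = 0.82 and 0.78) and Adcy3 (r = 0.81 and 0.76). Mmp9, like Spp1, was higher in A3905 and A3906, at 2172 and 2274 CPM against a WT Control mean of 1200 CPM.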

How the data were processed

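RNA-Seq values from 23 mice were grouped by genotype and disease state as the library labels give them. The authors deposited expected counts estimated with RSEM, rounded to whole numbers and not normalized, in a table of 67228 gene entries. TPM values from the sequencing provider were deposited in a second table. Per the labels and the study's methods, poly(A) RNA was selected with oligo dT, strand-marked libraries were sequenced as paired ends on the DNBSEQ platform, SOAPnuke was used for read filtering, and HISAT and Bowtie2 for alignment against GRCm38.p6. Versions of these tools are not given in the sources used here.

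The main test was run with edgeR 4.0.16 in R 4.3.3. A gene was tested if 5 or more mice had 10 or more counts, after TMM normalization, with a quasi-likelihood fit of genotype, diabetes, and their interaction over all 4 groups. Benjamini-Hochberg adjustment ran over all 14364 genes, with a threshold of 0.05, and the script was tested on simulated data. The p values weigh each difference against the spread between mice of a group, estimated over all 4 groups together. Nothing states that mice of a group came from separate litters or batches, so spread between litters or batches may not be included. Alternatives used limma 3.58.1 on log2 TPM, DESeq2 1.42.0, other normalization and filtering, mouse IDs, an erythroid covariate, summed osteocalcin counts, and leaving out each mouse. Sequences were compared in Python 3.11.15 with Biopython 1.88.

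Genes named in the text were the 9 genes, Bglap3, Sarm1, genes of the lists for other matrix proteins, phosphate handling, and matrix modification that passed a test, or else the 2 of each list with the largest change in WT, and the 2 genes most like each of the 9. Other genes named were cell type markers, genes counted in the text, or genes chosen after their values were seen, including Mepe, Dmp1, Sost, Fgf23, Fam20c, Ank, and Furin. Marker lists covered osteoblasts, osteocytes, osteoclasts, erythroid cells, neutrophils, macrophages, cartilage, and muscle. Col1a1, Col1a2, Dmp1, Mepe, and Phex stood in 2 of the lists. The members and lists were chosen with earlier results of these data known. Calls for single erythroid markers are not reported here.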

Additional observations from a re-analysis of the deposited data

How the results depend on the processing

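The count of the 9 genes that passed with T1D in WT was 1 with RLE normalization, no filter, DESeq2, and summed osteocalcin counts, and between 0 and 1 when each mouse was left out. It was 6 with limma on log2(TPM + 1) and on log2(TPM + 0.1), 3 with A36 to A39 mice, 0 without A3905 and A3906, and 0 with the erythroid covariate. The TPM scale lowered the median change of all genes in WT from -0.01 to -0.24 and -0.29, and its calls were 83 higher and 5071 lower, or 80 and 5093, against 215 and 119 with edgeR. On the TPM + 1 scale the WT changes were -2.30 for Bglap, -2.24 for Bglap2, -1.60 for Sparc, -1.34 for Alpl, -2.01 for Smpd3, and -0.82 for Phospho1, and those of Spp1 and Enpp1 were 0.10 and -0.30. For genotype in T1D mice, 2 of the 9 (Ibsp and Phospho1) passed with limma at either pseudocount, beside 8.12% and 8.25% of all tested genes, and 1 with A36 to A39 mice, beside 10.8%. In KO, for the interaction, and for genotype in Control mice, 0 of the 9 passed under every alternative run.

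The count of all genes with T1D in WT, 334 in the main fit, was 88 without a filter, 1002 with DESeq2 (593 higher, 409 lower), 5154 and 5173 with limma, 2211 with A36 to A39 mice (1117 higher, 1094 lower), 0 without A3905 and A3906 (1571 at an unadjusted p under 0.05), and 0 with the erythroid covariate. It ranged from 0 to 1262 when each mouse was left out, with 0 without A3767 or A3907 and 1262 without A3909. The interaction count was 2 with limma on log2(TPM + 1), where the median of all genes was 0.20, and 0 under the other alternatives. The cause of these shifts was not tested.

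With the erythroid covariate, signs turned in WT for Bglap (0.45), Bglap2 (0.29), Spp1 (-0.10), Sparc (0.37), Alpl (0.15), Phospho1 (0.13), and Smpd3 (0.0762), in KO for Bglap (0.11), Bglap2 (0.0831), Ibsp (0.0343), and Spp1 (-0.0684), and in the interaction for Bglap (-0.34), Bglap2 (-0.21), Spp1 (0.0313), and Sparc (-0.14). Each of these estimates was smaller in size than its SE. Without A3905 and A3906, Spp1 turned in WT (-0.28) and in the interaction (0.28). Enpp1 turned in WT with A36 to A39 mice (0.0653), and Spp1 in KO with limma (-0.0385 with a pseudocount of 1 and -0.0386 with 0.1). When each mouse was left out, estimates that turned ranged from -0.15 to 0.0222 for Enpp1 in WT, and in KO from -0.17 to 0.11 for Bglap, -0.18 to 0.0603 for Bglap2, -0.0765 to 0.0311 for Ibsp, -0.0696 to 0.0671 for Spp1, -0.0275 to 0.21 for Alpl, and -0.0195 to 0.13 for Phospho1. No paired analysis was possible because no mouse numbers were shared between groups.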
